A study of Mus musculus with 10 samples.

Results

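The genes described here encode potassium channels, voltage-gated calcium and sodium channels and their accessory subunits, as measured in mouse pancreatic islets. They are the rows of the deposited table whose symbols begin with Kcn, Cacn or Scn, without Kcnj11, Cacna1c, Cacna1d and the epithelial sodium channel genes of the Scnn1 group. The pattern matched 116 symbols, 6 were left out, and 110 of the 17945 named rows remained. Values are the authors' normalized counts per gene, on a common scale between libraries. Of the 110 genes, 58 had a value of at least 10 in at least 5 libraries and were tested, and 52 were not. All 110 matched a protein-coding gene in GENCODE M21. Scnm1 goes against the description of the set, because it encodes a splicing factor and no channel subunit.

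RNA was sequenced from islets of C57BL/6 mice aged 18 weeks, in 5 libraries labelled knockout and 5 labelled floxed control. The knockout genotype was Pdx1-CreER with Grk5 flox/flox, and the controls were Grk5 flox/flox with no Cre driver listed. Pdx1-CreER is a tamoxifen-activated recombinase made under the promoter of Pdx1, a transcription factor of β cells and of some other islet cells. Because the driver was listed for the knockouts only, the presence of CreER and the loss of Grk5 cannot be told apart. The sources used here do not state the tamoxifen schedule, the sex of the animals or whether the libraries came from different animals, and every p-value therefore refers to variation among libraries, which may be technical. Group names below are those of the labels. The kinase encoded by Grk5 acts on G protein-coupled receptors, and the study, by its title, concerned its role in proliferation of the insulin-secreting β cells by way of the histone deacetylase HDAC5.

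Pancreatic β cells are electrically excitable. Glucose metabolism closes ATP-sensitive potassium channels, the membrane depolarizes, voltage-gated sodium and calcium channels open, and calcium entry triggers the release of insulin granules. Voltage-gated, calcium-activated and two-pore potassium channels then repolarize the cell and limit firing, while inward rectifiers help to set the resting potential. Alpha and delta cells, which release glucagon and somatostatin, fire with their own mix of the same families.

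Several facts of the libraries bear on these genes. Normalized totals ran from 5534390 to 7358040. If the commonest low value of a library stands for 1 read, the totals correspond to between 2072840 and 10950982 reads. A value of 10 then stands for 2.82 reads in knockout 1, the shallowest library by this estimate, but 19.0 in knockout 3. The estimate is rough, because only 25.0% to 37.0% of a library's values above 0 were whole multiples of that low value. Some lay below it, such as Cacng3 at 0.235 in knockout 3, where it was 0.527. The targeted gene Grk5 lay between 94.4 and 269.8 in knockouts and between 127.9 and 386.9 in controls, a log2 difference of -0.55 ± 0.42 (SE, adjusted p = 0.955 by limma), so it did not separate the groups. Esr1, the estrogen receptor gene from which the tamoxifen-binding piece of CreER derives, lay between 1517 and 3177 in knockouts; controls 1, 3 and 4 held 2.0, 10.5 and 0.0, but controls 2 and 5 held 2495 and 773.5. Controls 2 and 5 therefore go against the other controls, and some of the results below are also given without them. The summed level of 7 β-cell markers lay between 962395 and 1273960 in knockouts and between 953317 and 1172320 in controls, which fits the islet label. All 7 had lower mean log2 values in knockouts. Likewise all 11 acinar markers had lower mean log2 values in knockouts, with sums of 31392 to 77228 in knockouts and 20798 to 232012 in controls.

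Detection of channel genes varied between the libraries of each group. Between 47 and 90 of the 110 genes were above 0 in a knockout library, and between 67 and 80 in a control library. Knockout 1 listed 19 of the 58 tested genes at 0 (32.8%), a larger share than the 19.5% of all tested genes listed at 0 there. Every other library listed between 0 and 8 of the 58 at 0. In every control this share was also larger than over all tested genes, as in control 5 (13.8% against 5.93%) and control 1 (12.1% against 7.04%). In knockouts 2 to 5 it was smaller, as in knockout 4 (3.45% against 6.43%). The channel genes together made up 0.0962% to 0.172% of a library's total, the lowest share in knockout 1 and the highest in knockout 4. Their mean levels were also modest: the median over the 58 tested genes was 61.2 normalized counts, against 137 over all 11711 genes tested. The within-group SD of a tested channel gene on the log2(value + 8) scale had a median of 0.99, or 0.57 for the 13 genes with means over 200.

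**Figure D1:**
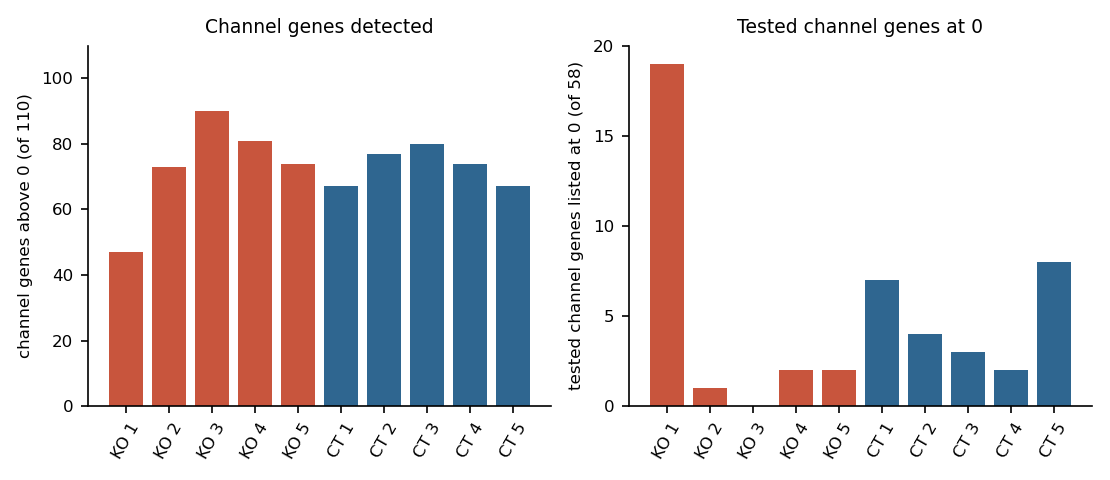
Channel genes above 0 (left, of 110) and tested channel genes listed at 0 (right, of 58) in each library, knockout (KO) in red and control (CT) in blue. Knockout 1 had 47 genes above 0 and listed 19 tested genes at 0, against 0 to 8 in the other libraries.

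No channel gene differed between the groups at an adjusted p under 0.05. The test was limma on log2(value + 8), fitted to all genes, where 0 of 11711 passed (0%). The lowest adjusted p of a channel gene was 0.942. At an unadjusted p under 0.05 there were 8 of the 58 tested genes (13.8%), against 587 of 11711 genes tested (5.01%). Kcnab1, Kcnab2, Kcnj13 and Scnm1 were the 4 with higher values in knockouts, where the share over all genes was 2.36%. Of these, Scnm1 is no channel subunit, and Kcnab2 and Kcnj13 passed the filter on low values mostly through knockouts. Kcnh2, Kcnh5 and Scn9a were among the 4 with lower values, where the share over all genes was 2.66%. Knockout and control libraries did not overlap for 2 of the 58, Kcnab1 and Scnm1, both higher in knockouts, and for 0.862% of all genes tested, or 0.435% in that direction; no tested channel gene was fully lower, against 0.427% of all genes. Log2 differences were above 0 for 34 of the 58 and below 0 for 24, with a median of 0.23, against a median of -0.03 over all genes tested, of which 47.6% were above 0. Over the channel genes that passed the filter in each fit, the median turned to -0.01 both without controls 2 and 5 and without control 2. It turned to -0.11 without knockout 4. Without controls 2 and 5 the count at an unadjusted p under 0.05 was 4, namely Scnm1, Kcnh2, Scn9a and Kcnh5, with 4.19% of all genes tested in that fit. It was 5 at a minimum value of 50 (4.81% of all genes), 5 without knockout 4 (5.03%) and 5 without control 3 (4.48%). It was 9 without knockout 1 (5.4%), 10 with no filter on low values (4.15%) and 10 with no trend or robust estimates (4.91%). In bulk islet RNA, fewer cells of a type and less RNA per cell cannot be told apart.

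**Figure D2:**
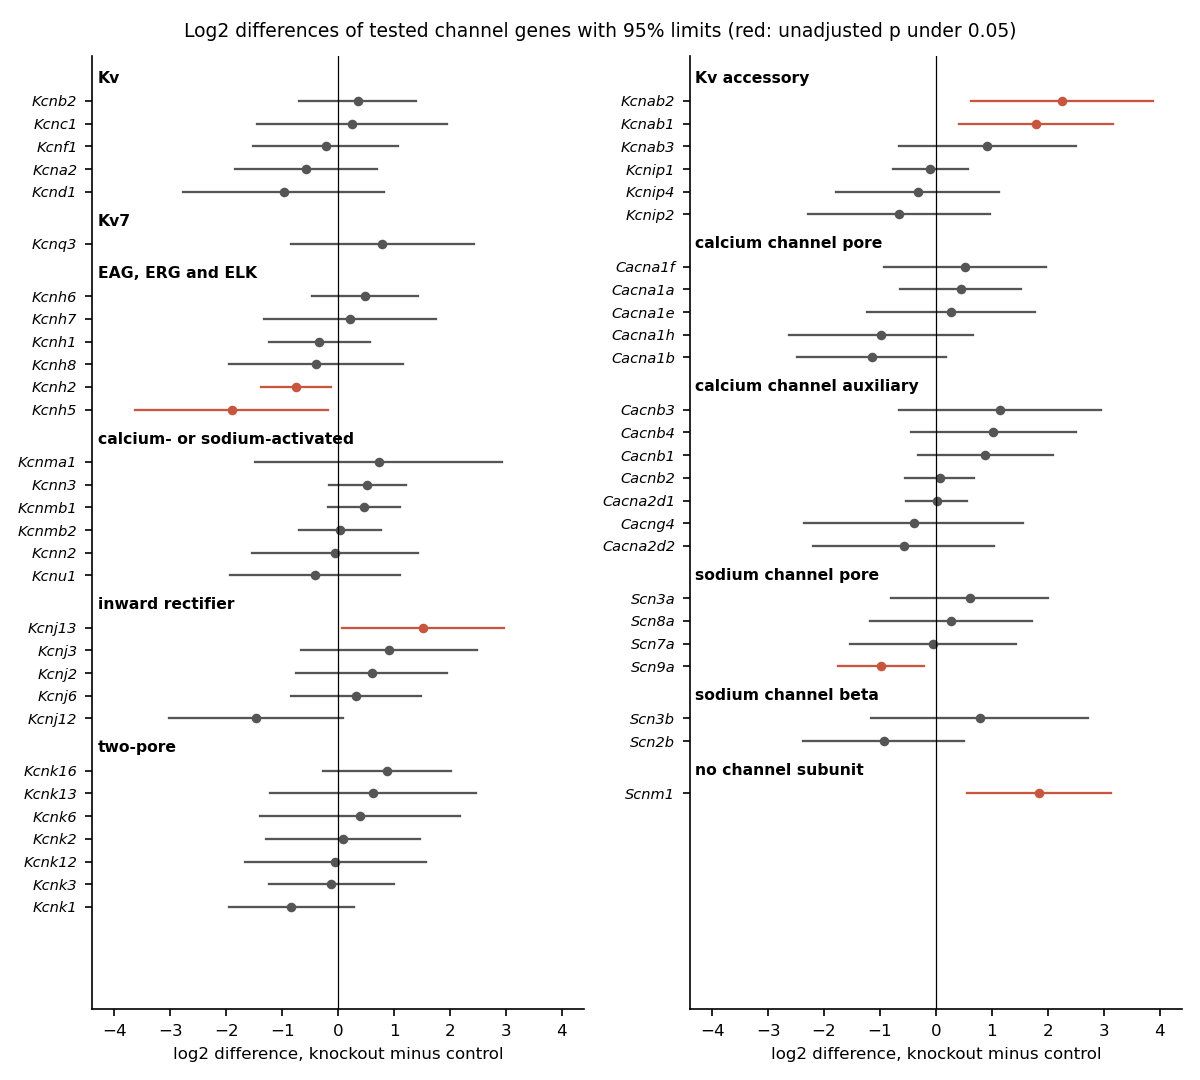
Log2 difference (knockout minus control, on the log2(value + 8) scale) of tested channel genes, by family, with limma's 95% limits; red marks an unadjusted p under 0.05. The limits of the genes in red leave out 0, and no gene had an adjusted p below 0.942.

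The voltage-gated potassium channels of the Kv group open on depolarization and repolarize the cell. Of 17 genes, 7 were tested, 3 above 0 and 4 below, with a median log2 difference of -0.22. Kcnb2, which encodes the delayed rectifier Kv2.2, averaged 183 ± 113 in knockouts and 139.7 ± 80.4 in controls (SD, n = 5 each), a log2 difference of 0.35 ± 0.50 (SE). Knockouts 2 and 5, at 350.0 and 251.0, were above every control, and the other 3 lay among them. Its sign turned without controls 2 and 5, to -0.03. Kcna2, a Kv1 delayed rectifier gene, had 102.9, 74.0, 34.8, 30.6 and 86.5 in knockouts, against 20.1, 123.8, 136.9, 136.9 and 127.3 in controls. Control 1 was the lowest of the 10 libraries and the other 4 controls were above every knockout, so the log2 difference of -0.58 ± 0.60 (SE) became -1.04 without control 1. Kcnd1, which encodes an A-type channel, ran from 0.0 to 102.0 in knockouts and from 3.8 to 228.3 in controls. Kcnf1, a silent subunit that joins Kv2 channels, ran from 36.4 to 82.3 in knockouts and from 14.9 to 125.9 in controls. Kcnc1, a Kv3 gene of fast-firing cells, ran from 0.0 to 108.0 in knockouts and from 3.4 to 76.5 in controls.

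**Figure D3:**
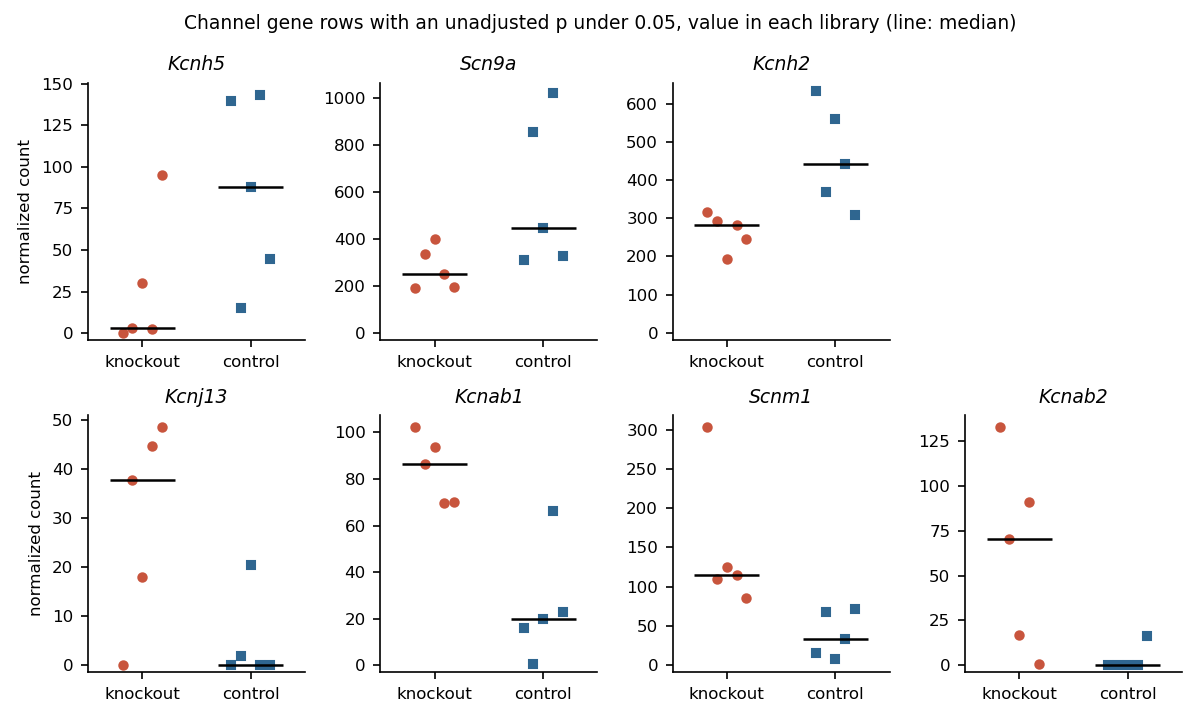
Normalized counts in each knockout (red circles) and control library (blue squares) of named genes with an unadjusted p under 0.05; lines are medians. In the top row the knockouts lie mostly below the controls, and in the bottom row mostly above them, with complete separation for Kcnab1 and Scnm1.

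Cytosolic and membrane partners of Kv channels set their gating and traffic. Of 12 such genes 6 were tested, 3 with higher and 3 with lower values in knockouts, a median log2 difference of 0.41. The Kv β subunits are the aldo-keto reductase-like proteins that bind Kv1 channels inside the cell. Kcnab1 (ENSMUSG00000027827, chromosome 3, 65109384 to 65378223 in GRCm38, plus strand) had 102.3, 86.4, 93.8, 69.9 and 70.3 normalized counts in knockouts 1 to 5, against 16.0, 0.6, 19.9, 66.0 and 22.9 in controls 1 to 5. Every knockout lay above every control, although control 4, at 66.0, came close to knockout 4, at 69.9. Its log2 difference was 1.79 ± 0.66 (SE, 95% limits 0.41 to 3.17), with limma's p at 0.0140 before and 0.942 after adjustment and an exact permutation p of 0.00794. Exact tests here and below are 2-sided, and this is the smallest p that 5 libraries against 5 allow. Without controls 2 and 5 it was 1.32 with an unadjusted p of 0.0709 by limma.

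Kcnab2 (chromosome 4, 152390742 to 152477871, minus strand), which encodes Kv β2, had 132.9, 70.2, 17.1, 90.9 and 0.8 in knockouts, against 16.1 in control 5 and a listed 0 in the other 4 controls. It passed the filter on low values through 4 knockouts and 1 control, so the filter itself favoured a difference in this direction. Its log2 difference was 2.25 ± 0.77 (SE), with limma's p at 0.00914 before and 0.942 after adjustment and an exact permutation p of 0.0159. Without controls 2 and 5, or without knockout 1, it no longer passed the filter. Kcnab3, the remaining Kv β gene, had 21.2, 130.6, 116.3, 55.8 and 68.2 in knockouts, against 77.1, 104.4, 32.8, 24.7 and 0.0 in controls, and its groups overlapped widely (log2 difference 0.92 ± 0.75, SE). Kcnip1, a calcium-binding partner of Kv4 channels, was the steadiest of the accessory genes: 321 ± 38.2 in knockouts and 367 ± 175 in controls (SD, n = 5 each), where control 5 held 673.0 and the other 9 libraries lay between 245.1 and 375.7. Its log2 difference was -0.10 with 95% limits of -0.77 to 0.57, and the sign turned without control 5. The related Kcnip2 and Kcnip4 were at -0.66 ± 0.77 and -0.33 ± 0.69 (log2 difference, SE).

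The Kcnh genes encode the EAG, ERG and ELK channels, of which the ERG type closes slowly and damps repeated firing in β cells. Of 8 genes 6 were tested, 2 above 0 and 4 below, with a median of -0.37. Kcnh2 (ENSMUSG00000038319, chromosome 5, 24319589 to 24351604, minus strand), the ERG1 gene, had 315.8, 291.5, 194.6, 282.3 and 245.1 normalized counts in knockouts 1 to 5, against 631.9, 369.6, 558.3, 442.4 and 309.8 in controls 1 to 5. Knockout 1 was just above control 5, and the other 4 knockouts lay below every control. The means were 266 ± 47.3 in knockouts and 462 ± 133 in controls (SD, n = 5 each), a log2 difference of -0.75 ± 0.30 (SE, 95% limits -1.38 to -0.12). The unadjusted p was 0.0218 and the adjusted p 0.942 by limma, with an exact permutation p of 0.0159. The difference was -1.02 without controls 2 and 5, with an unadjusted p of 0.00814 by limma. The p was above 0.05 without knockout 3 (-0.65, unadjusted p = 0.0570 by limma), without control 1 (-0.63, 0.0635) and without control 3 (-0.67, 0.0588).

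Kcnh6, the ERG2 gene, which is expressed in islets, ran the other way in its means: 286 ± 139 in knockouts and 192 ± 97.2 in controls (SD, n = 5 each). Knockouts 2 and 5 (405.7 and 423.6) were above every control and knockout 1 (83.5) was below every control, and the log2 difference was 0.48 ± 0.45 (SE). Whether Kcnh2 and Kcnh6 differed from each other in response was not tested. Kcnh5, which encodes an EAG channel, had 0.0, 2.8, 30.1, 2.4 and 94.96 in knockouts, against 139.5, 14.9, 87.7, 143.4 and 44.4 in controls. Knockouts 1, 2 and 4 lay below every control, knockouts 3 and 5 among them, and the log2 difference was -1.90 ± 0.82 (SE, unadjusted p = 0.0321 and adjusted p = 0.942 by limma; exact permutation p = 0.0714). It was -2.66 without controls 2 and 5, and without knockout 1 it was -1.57 with an unadjusted p of 0.0704 by limma. Kcnh1, the other EAG gene, had 130.3 ± 52.9 in knockouts and 158 ± 41.4 in controls. Kcnh7, the ERG3 gene, was at 0.21 ± 0.73 and Kcnh8, an ELK gene, at -0.40 ± 0.74 (log2 difference, SE). Of the 5 Kv7 genes, slowly activating channels that hold the membrane near rest, 2 were tested, both above 0. Kcnq3 ran from 0.0 to 98.8 in knockouts and from 0.0 to 58.6 in controls, a log2 difference of 0.79 ± 0.78 (SE).

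Sequence upstream of the transcription start is shown for Kcnh2 and Scn9a, the genes among the 8 that had a mean over 100 and a single start in the RefSeq promoter table. The 250 bases before each start are given 5′ to 3′ from GRCm38.p6. Capitals mark the GC box GGGCGG, searched on both strands, the element bound by Sp family factors. The Kcnh2 stretch, chr5:24329592-24329841 on the minus strand, lies before a start that is internal to the longer GENCODE gene, and the Scn9a stretch is chr2:66634963-66635212 on the minus strand.
Kcnh2: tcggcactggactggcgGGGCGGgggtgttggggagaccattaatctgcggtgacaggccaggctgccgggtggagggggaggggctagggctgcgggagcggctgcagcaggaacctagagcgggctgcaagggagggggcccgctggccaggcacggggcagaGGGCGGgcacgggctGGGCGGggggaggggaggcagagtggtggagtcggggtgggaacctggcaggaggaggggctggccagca
Scn9a: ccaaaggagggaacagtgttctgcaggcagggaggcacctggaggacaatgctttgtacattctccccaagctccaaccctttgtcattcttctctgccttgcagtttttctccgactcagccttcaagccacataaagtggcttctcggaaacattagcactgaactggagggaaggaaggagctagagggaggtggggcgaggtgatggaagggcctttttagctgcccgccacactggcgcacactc
The Kcnh2 stretch held 3 GC boxes and 73.6% G and C, and the Scn9a stretch held 0 and 54.4%. A GC box was in 32.7% of the 32851 promoter stretches in that table, and in 46 of the 111 that belong to channel genes (41.4%). Neither stretch held the CRE half-site TGACG, the AP-1 element TGANTCA or a loose MEF2 pattern (CTA and TAG with any 4 bases between). These patterns were each searched on both strands. They were in 17.8%, 6.75% and 3.202% of all stretches, and in 15.3%, 4.50% and 0.901% of the 111 that belong to channel genes. These matches describe letters only.

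Calcium-activated potassium channels couple calcium entry to repolarization. Of 10 genes in the calcium- or sodium-activated group 6 were tested, 4 above 0 and 2 below, with a median of 0.25 and none at an unadjusted p under 0.05. Kcnma1, the pore of the large-conductance BK channel, had 72.7, 352.7, 128.1, 306.0 and 443.1 in knockouts, against 215.1, 375.0, 403.6, 154.5 and a listed 0 in controls. That 0, in control 5, decided its sign: the log2 difference was 0.72 ± 1.01 (SE) over all libraries and -0.30 without control 5. The BK β subunits were more even. Kcnmb1 had 519 ± 152 in knockouts and 373 ± 123 in controls, a log2 difference of 0.46 ± 0.31 (SE), and Kcnmb2 had 372 ± 96.7 in knockouts and 393 ± 213 in controls (SD, n = 5 each). Kcnmb1 lies within the span of Kcnip1 on the opposite strand, so its values may hold Kcnip1 reads if strand was not used in counting. Kcnmb2 was at 0.03 with 95% limits of -0.70 to 0.77, although its plain mean was lower in knockouts. Kcnn3, a small-conductance SK channel, had 598.5, 352.7, 579.6, 541.2 and 721.9 in knockouts, against 201.7, 390.7, 526.6, 671.4 and 267.8 in controls. Only knockout 5 exceeded every control, and the log2 difference was 0.52 ± 0.33 (SE, unadjusted p = 0.130 by limma). Kcnn2, another SK gene, was at -0.06 ± 0.71 (SE), a sign that turned with a pseudocount of 32. Kcnu1, a BK relative of sperm in mice, ran from 0.0 to 29.1 in knockouts and from 0.0 to 60.3 in controls.

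Inward rectifiers pass potassium near the resting potential, and the Kir3 members open on G protein signals. Of 13 genes 5 were tested, 4 above 0 and 1 below, with a median of 0.60. Kcnj6 and Kcnj3 encode the Kir3 subunits through which somatostatin and adrenaline hyperpolarize islet cells. Kcnj6 had 356.7, 95.6, 62.6, 209.3 and 73.2 in knockouts, against 253.5, 83.6, 62.7, 118.3 and 64.7 in controls. Knockout 1 lay above every control, knockout 3 just below the lowest and the other 3 knockouts among them (log2 difference 0.32 ± 0.55, SE; -0.04 without knockout 1). Kcnj3 ran from 16.2 to 65.1 in knockouts and from 0.0 to 47.4 in controls (0.91 ± 0.75, SE). Exons of Gm26794, on the opposite strand, cover 31.1% of the Kcnj3 exon bases, so its values may hold reads of Gm26794 unless strand was used in counting. Kcnj13 (chromosome 1, 87386363 to 87394729, minus strand) encodes Kir7.1, a channel of transporting epithelia. It had 0.0, 37.7, 17.9, 44.7 and 48.5 in knockouts, against 20.5 and 2.0 in controls 3 and 2 and a listed 0 in the other 3. Its log2 difference was 1.52 ± 0.69 (SE, unadjusted p = 0.0412 and adjusted p = 0.942 by limma; exact permutation p = 0.0873), and it too passed the filter through 4 knockouts and 1 control. It was 1.34 without controls 2 and 5, with an unadjusted p of 0.136 by limma, and without knockout 1 it was 2.01 with 0.00680. Exons of Gigyf2, on the opposite strand, cover 49.1% of its exon bases, so reads of the 2 genes can be told apart only if strand was used in counting, and the sources used here do not say. Kcnj12, a strong rectifier of muscle, was at -1.47 ± 0.74 (SE, unadjusted p = 0.0619 by limma), with 0.0 to 67.2 in knockouts and 24.9 to 80.0 in controls. Kcnj2, the Kir2.1 gene, was at 0.60 ± 0.64 (SE), with 9.5 to 53.2 in knockouts and 5.8 to 34.5 in controls.

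Two-pore channels carry background potassium current. Of 11 genes 7 were tested, 4 above 0 and 3 below, with a median of 0.08, and none had an unadjusted p under 0.05. Kcnk16, which encodes TALK-1, a β-cell channel that restrains calcium entry, had 99.4, 195.6, 72.2, 183.5 and 144.6 in knockouts, against 201.3, 38.8, 31.97, 94.7 and 53.5 in controls. Control 1 was the highest of the 10 libraries and the other 4 controls were no higher than 94.7. The log2 difference was 0.87 ± 0.55 (SE, unadjusted p = 0.128 by limma), and 1.24 without control 1. Kcnk1, the TWIK-1 gene, had 31.9, 174.6, 239.9, 150.6 and 40.1 in knockouts, against 135.1, 150.1, 260.1, 261.0 and 147.5 in controls. Knockouts 1 and 5 lay far below every control and the other 3 among them, a log2 difference of -0.84 ± 0.53 (SE). Kcnk3, the acid-sensitive TASK-1 gene, averaged 145 ± 104 in knockouts and 125 ± 20.5 in controls (SD, n = 5 each), and its knockouts ranged from 28.4 to 291.7, against controls between 99.3 and 152.3. On the log2 scale the sign was opposite to that of the means, -0.12 ± 0.53 (SE), and it was 0.31 without knockout 1. The remaining tested members, Kcnk2, Kcnk6, Kcnk12 and Kcnk13, had log2 differences between -0.05 and 0.63 with SEs of 0.66 to 0.88, and each was listed at 0 in at least 1 library.

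Calcium channel pores of the Cav2 and Cav3 types stood beside the L-type genes left out by the rule. Of 7 pore genes 5 were tested, 3 above 0 and 2 below, with a median of 0.27. Cacna1a, the P/Q-type pore that contributes to exocytosis, had 400.5, 202.4, 295.5, 505.7 and 94.3 in knockouts, against 83.6, 99.4, 225.1, 215.4 and 566.8 in controls. Control 5 was the highest of the 10 libraries, and the log2 difference of 0.44 ± 0.52 (SE) was 0.83 without it. Cacna1b, the N-type pore, had 9.1, 59.4, 143.5, 107.7 and 68.1 in knockouts, against 81.8, 141.5, 397.6, 191.8 and 67.2 in controls. Control 3 stood highest and knockout 1 lowest, and the log2 difference was -1.15 ± 0.63 (SE, unadjusted p = 0.0867 by limma), or -0.65 without knockout 1. Cacna1h, a low-voltage-activated T-type pore, ran from 0.0 to 46.9 in knockouts and from 10.4 to 155.4 in controls (-0.98 ± 0.79, SE). Cacna1e, the R-type pore, was low throughout, with at most 50.1 in knockouts and 30.8 in controls. Cacna1f, an L-type pore of the retina, reached 29.9 in knockouts and 29.7 in controls.

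Auxiliary subunits bring the pores to the membrane and tune their gating. Of 14 genes 7 were tested, 5 above 0 and 2 below, with a median of 0.06. The median was 0.45 with values rescaled to equal library totals, where Cacna2d4 also passed the filter, so it is not over the same genes. Cacna2d1, the α2δ subunit that is the target of gabapentin, was the most evenly matched: 972 ± 363 in knockouts and 937 ± 232 in controls (SD, n = 5 each), with a log2 difference of 0.02 and 95% limits of -0.53 to 0.56. Cacnb2, a β subunit, averaged 543 ± 107 in knockouts and 546 ± 236 in controls, at 0.06 with 95% limits of -0.56 to 0.69. Cacnb1 had 175.3, 97.3, 42.9, 71.8 and 65.8 in knockouts, against 34.1, 24.2, 53.6, 40.8 and 58.9 in controls. Knockout 3 alone lay among the controls, and the log2 difference was 0.88 ± 0.57 (SE, unadjusted p = 0.142 by limma; exact permutation p = 0.0397). Cacnb3, the β subunit whose loss raises insulin secretion in mice, had a listed 0, 54.7, 47.4, 238.8 and 61.8 in knockouts, against 13.7, 9.5, 48.9, 43.9 and a listed 0 in controls (1.15 ± 0.86, SE, and 0.60 without knockout 4). Cacnb4, the last of the β subunit genes, had 35.7, 73.0, 15.4, 63.8 and 4.2 in knockouts, against 5.8, 23.9, 22.4, 0.9 and 9.2 in controls (1.03 ± 0.71, SE). Exons of A430018G15Rik, on the opposite strand, cover 16.0% of the Cacnb4 exon bases, so its values may hold those reads unless strand was used in counting. The other α2δ gene tested, Cacna2d2, was at -0.58 ± 0.77 (SE). Cacng4, a γ subunit gene, was at -0.40 ± 0.93 (SE), with 264.7 in knockout 5 and at most 42.3 in the other knockouts, against 1.1 to 172.0 in controls.

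Voltage-gated sodium channels carry the rapid upstroke. Of 9 pore genes 4 were tested, 2 above 0 and 2 below. Scn9a (ENSMUSG00000075316, chromosome 2, 66480080 to 66634962, minus strand) encodes the sodium channel Nav1.7. It had 191.0, 334.4, 400.6, 250.5 and 195.9 normalized counts in knockouts 1 to 5, against 311.5, 853.6, 447.1, 1022 and 328.4 in controls 1 to 5. Knockouts 1, 4 and 5 lay below every control, and knockouts 2 and 3 lay between the lower 2 and the upper 3 controls. The means were 274 ± 91.1 in knockouts and 593 ± 325 in controls (SD, n = 5 each). The log2 difference was -0.98 ± 0.37 (SE, 95% limits -1.75 to -0.20), with limma's p at 0.0160 before and 0.942 after adjustment and an exact permutation p of 0.0476. It was -0.97 without controls 2 and 5, with an unadjusted p of 0.0379 by limma. The p was above 0.05 without control 2 (-0.80, unadjusted p = 0.0554 by limma) and without control 4 (-0.74, 0.0664).

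Scn9a is one of a row of sodium channel genes on chromosome 2, with Scn3a (65457118 to 65567627), Scn2a1 (65620771 to 65767447), Scn1a (66270778 to 66440840) and Scn7a (66673425 to 66784914) beside it. Scn3a, the Nav1.3 gene of alpha and β cells, had 182.7, 67.7, 304.0, 248.1 and 420.3 in knockouts, against 113.1, 530.6, 343.7, 34.0 and 55.4 in controls, a wide overlap with a log2 difference of 0.60 ± 0.66 (SE). Scn7a, a sodium sensor of glia, ran from 0.0 to 40.0 in knockouts and from 0.0 to 34.9 in controls. Scn1a and Scn2a1 did not pass the filter on low values; Scn2a1 was listed at 8.8 in knockout 3 and 0 in the other 4 knockouts, against 14.0, 0.0, 116.6, 10.5 and 19.4 in controls. Elsewhere in the genome, Scn8a, the Nav1.6 gene, averaged 161 ± 140.2 in knockouts and 156 ± 128 in controls (SD, n = 5 each; log2 difference 0.28 ± 0.69, SE). Among the sodium channel β subunits, Scn3b ran from 0.0 to 157.1 in knockouts and from 0.0 to 177.9 in controls, and Scn2b from 0.0 to 26.9 in knockouts and from 2.9 to 40.1 in controls.

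Scnm1 had the lowest p of the set although it is no channel gene: its product takes part in splicing of minor introns and is named for an effect on sodium channel transcripts in mice. It lies on chromosome 3 from 95129536 to 95134011. Scnm1 had 303.6, 109.3, 125.7, 114.6 and 85.8 normalized counts in knockouts 1 to 5, against 15.4, 67.3, 8.3, 32.8 and 71.3 in controls 1 to 5. Every knockout lay above every control. The log2 difference was 1.85 ± 0.61 (SE, 95% limits 0.56 to 3.14), with limma's p at 0.00744 before and 0.942 after adjustment and an exact permutation p of 0.00794. It was 1.56 without knockout 1, which held the highest value, and 2.50 without controls 2 and 5.

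Levels can be set beside each other only per length of transcript. Divided by annotated exon length, which joins the exons of all GENCODE isoforms of a gene, the highest level among the 58 was that of Kcnmb2, at 122 ± 49.9 normalized counts per kb over the 10 libraries of both groups (SD). Kcnmb1 followed at 106 ± 36.1, then Cacna2d1 at 76.9 ± 23.2, Kcnh2 at 75.2 ± 28.8, Kcnk1 at 71.2 ± 36.1 and Kcnh6 at 67.4 ± 34.7. Each of these differed from the next by less than the larger SD of the pair. The order differed between the groups: Kcnmb1 was highest in knockouts, at 124 ± 36.2 per kb (SD, n = 5), and Kcnmb2 in controls, at 126 ± 68.0. Kcnmb1 lies within the span of Kcnip1, on the opposite strand. Unless strand was used in counting, which the sources do not state, reads from Kcnip1 introns may enter the Kcnmb1 level. Kcnh2 was in place 8 in knockouts, at 54.9 ± 9.75 per kb, and in place 2 in controls, at 95.4 ± 27.4 (SD, n = 5 each). Kcnip1 (55.5 ± 19.6), Kcnk16 (46.9 ± 27.5) and Kcnn3 (46.4 ± 16.6) came next among the channel genes, ahead of Cacnb2 (41.2 ± 13.1). Scn9a and Kcnk3 stood close together at 33.9 ± 22.0 and 33.8 ± 17.9 per kb. Cacna1a led the calcium channel pores at 23.5 ± 15.05, and Kcnj6 the inward rectifiers at 18.1 ± 13.3. The β subunits Kcnab1 and Kcnab2 were low by this measure, at 6.38 and 5.88 per kb.

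**Figure D4:**
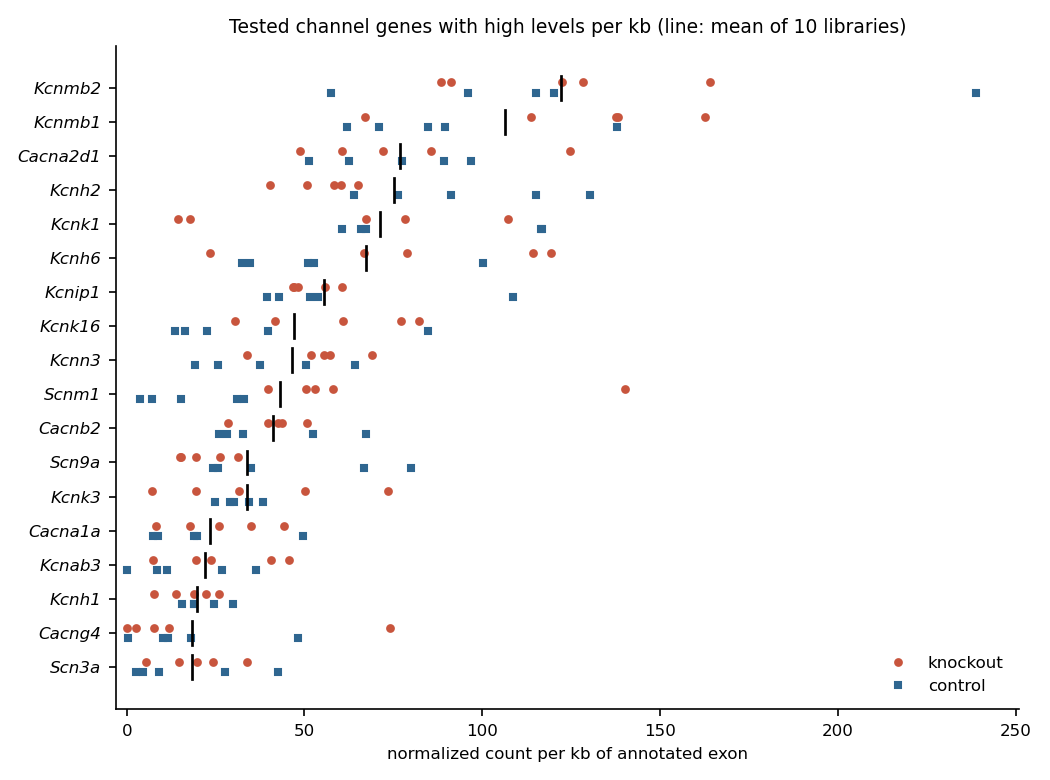
Normalized counts per kb of annotated exon in each knockout (red circles) and control library (blue squares) for tested genes with high means; black lines are means of the 10 libraries. Means fall from 122 per kb for Kcnmb2 to 18.5 for Scn3a, and the libraries of neighbouring genes overlap.

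The 52 genes that were not tested had low or scattered values. Of these, 41 were above 0 in 5 or fewer libraries, 10 in a single library, and 9 never reached 10. Among those above 0 in a single library were Kcna3, Kcnc4, Kcng3, Kcne1, Kcne2, Kcnj14, Kcnk7, Cacng1 and Scn4b. Several of the 52 are known from islets. Kcnq1, a Kv7 gene associated with diabetes in humans, had 78.1, 0.0, 9.5, 0.0 and 4.2 in knockouts, against 57.5, 0.0, 5.7, 45.0 and 0.0 in controls. Kcnj5, a Kir3 partner, had at most 5.6 in knockouts, against 119.3, 8.0, 0.0, 36.8 and 7.2 in controls. Kcnj8, which encodes the Kir6.1 subunit of ATP-sensitive channels in vessels, was above 0 only in knockout 2 (26.5) and controls 1 and 3 (21.6 and 9.3). Kcnk5 and Kcnk10, two-pore genes, were above 0 in 3 and 2 libraries, and Kcne2, an accessory subunit, in 1. At the edge of the filter, 7 tested genes had exactly 5 libraries at 10 or more (Kcnab2, Kcnc1, Kcnj13, Kcnk13, Kcnq3 and Kcnu1 among them), and 6 untested genes had 4 (Cacna2d4, Kcnip3, Kcnj15, Kcnk9 and Scn2a1 among them).

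Other genes of membrane potential and calcium handling were read from a list chosen by known role: 83 genes, of which 78 were in the table and 60 tested. None passed the adjusted threshold by limma. At an unadjusted p under 0.05 there were 4 (6.67%, against 5.01% of all genes tested), 1 higher and 3 lower. Gem, a small GTPase that binds the calcium channel β subunits and holds back the current, had 291.0, 566.5, 565.0, 898.4 and 792.2 in knockouts, against 721.5, 995.9, 1253, 1269 and 1216 in controls. Its log2 difference was -0.87 ± 0.29 (SE, unadjusted p = 0.00689 and adjusted p = 0.942 by limma). Itpr2, a calcium release channel of the endoplasmic reticulum, averaged 188 ± 98.1 in knockouts and 361 ± 147 in controls (SD, n = 5 each). Atp1b3, a sodium pump β subunit, averaged 380.0 ± 242 in knockouts and 170.4 ± 53.2 in controls. On balance 21 of the 60 were above 0 and 39 below, with a median log2 difference of -0.14.

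Genes of glucose triggering outside the set had these values. Abcc8, the sulfonylurea receptor, averaged 2066 ± 611 in knockouts and 2257 ± 444 in controls, and the L-type pore Cacna1c averaged 672 ± 136 in knockouts and 859 ± 410.4 in controls (SD, n = 5 each). Kcnj11, the pore of the ATP-sensitive channel, was listed at 0 in knockouts 1 and 4 and in controls 1, 2 and 5, and elsewhere between 20.96 and 90.5. Cacna1d, the other L-type pore, was listed at 0 in 5 libraries and reached 649.7 in knockout 2. Since Kcnj11 is a gene that every β cell uses, a listed 0 cannot be read as absence for any channel gene here.

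Many channel genes are also used by other cells of the preparation, and marker lists for these gave the following sums. The summed level of 6 endothelial markers was 1874 to 2579 in knockouts and 1598 to 1854 in controls, without overlap, with 5 of 6 higher in mean log2 value. For 5 of 6 ductal markers present in the table, sums were 1083 to 2360 in knockouts and 927 to 1321 in controls. Krt7 alone made up most of each sum, at 801 to 2227 in knockouts and 629 to 1120 in controls. Mean log2 values in knockouts were higher for 4 of the 5 ductal markers and lower for 1, Sox9. Sums over 9 Schwann cell and neuronal markers were 221 to 772 in knockouts and 320.1 to 587 in controls, and over 7 pericyte and stromal markers 569 to 886 in knockouts and 622 to 1007 in controls; the glial markers Sox10 and S100b were each at 0 in 8 libraries. For 5 of 6 immune markers present in the table, sums were 493 to 1003 in knockouts and 369 to 754 in controls, with the highest in knockout 4, where Ptprc, the leukocyte antigen CD45, was 585.0, against at most 38.6 in any other library. Knockout 4 is also the library with the highest channel gene share. Alpha markers summed to 60917 to 93074 in knockouts and 70949 to 97154 in controls. Their part in the channel gene values was not tested.

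The authors' deposited table gives its own comparison for the same libraries. In the authors' deposited table, 0 of the 76 channel genes with an adjusted p were under 0.05, against 0.136% of all genes with one, and the lowest, 0.348, was that of Scnm1. At an unadjusted p under 0.05 the authors' deposited table has 11 of 98 channel genes, against 5.98% of all genes with a p. Of those 11, 7 were tested here and 6 of the 7 were also under 0.05 by limma. In the other direction, Kcnh5 and Kcnj13, under 0.05 by limma, have unadjusted p-values of 0.118 and 0.109 in the authors' deposited table. The authors' deposited table gives log2 fold changes of -0.80 for Kcnh2, -1.10 for Scn9a, 1.76 for Kcnab1 and 4.28 for Kcnab2. Both analyses use the same libraries, so their overlap is no independent evidence.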

How the data were processed

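The labels and protocols describe islet RNA depleted of ribosomal RNA, made into stranded, random-primed libraries and read as Illumina pairs. Per the submitters' processing notes STAR 2.4.0.1, HTSeq and DESeq2 were used, with no role given; build, annotation and strand setting were not stated. The values deposited by the authors are normalized counts, a signal unit; between 25.0% and 37.0% of a library's values above 0 were whole multiples (within 0.01) of its commonest low value, so whole reads could not be recovered and no count model was used. The authors' table also holds their comparison as deposited: a log2 fold change, its standard error, a statistic (a score), a p-value and an adjusted p-value per gene. It held 17946 rows, of which 1 without a gene name was left out (0.00774% to 0.0251% of a library).

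Genes with a value of at least 10 in at least 5 libraries (11711) were compared as log2(value + 8) by limma 3.58.1 (R 4.3.3), letting the prior variance follow the mean, with robust moderation, and p-values were adjusted by Benjamini-Hochberg over all genes tested; fold changes on this scale are understated for low genes. Exact 2-sided permutation tests used scipy 1.17.1. The steps were tested on simulated data. Depth is known only by the estimate from low values, so no counting intervals are given. Libraries were numbered in accession order and not paired. Named genes are those with an unadjusted p under 0.05, with groups that do not overlap, with the highest levels per kb in a family, next to the filter, or with a known islet role; not each of them is printed, and the others (Kcnd1 and Kcnf1, for example) were added after their values were seen. The members and lists were chosen with earlier results of these data known. Positions are from GENCODE M21 on GRCm38, promoter sequence from RefSeq (GRCm38.p6), where 80 channel genes had at least 1 entry. The alternatives were other pseudocounts, filters, scalings (TMM factors were computed on the values only to rescale them), variance estimates and weights, and leaving out libraries. Results of some genes are not reported here; counts and medians over lists include them.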

Additional observations from a re-analysis of the deposited data

Results flagged for a closer look

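Among 39 channel genes whose log2 differences were examined, in 78 groups of 5 libraries, 4 groups held a library whose gap to its nearest neighbour, on the log2(value + 8) scale, was more than 0.71 of the group's range. For normally distributed values, chance alone gives such a gap in about 1 in 20 groups. That rate does not apply to groups with several listed 0s, as in the Kcnab2 and Kcnj13 controls. Kcna2 was 20.1 in control 1, against 123.8 to 136.9 in the other controls. Kcnma1 was listed at 0 in control 5, against 154.5 to 403.6 in the others. Kcnj13 was 20.5 in control 3, against 0 to 1.99 in the others. Kcnab2 was 16.1 in control 5, against a listed 0 in each of the others.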

How the results depend on the processing

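No paired analysis was possible because the labels give no replicate numbers shared between knockouts and controls. None of 39 channel genes passed an adjusted p of 0.05 under any of 20 alternatives (lowest adjusted p 0.694 by limma), and 28 of them kept their direction in every alternative that could be fitted. Over all genes, 1 passed with no trend or robust estimates (Commd8) and 1 without controls 2 and 5 (Esr1). Those controls were left out for their Esr1 values, so the Esr1 result follows from that choice and is no evidence. With single libraries left out 0 to 1 passed, where that 1 came without control 1 (Ppp4r1l-ps). The count of channel genes at an unadjusted p under 0.05 was 8 over all libraries, 5 at a minimum value of 50 and 4 without controls 2 and 5, where fewer genes or libraries enter, and 5 to 9 with single libraries left out, with 5 without knockout 4 and 5 without control 3. Of the 8, Scnm1 stayed under 0.05 in all 21 fits, Kcnab1 in 20, Scn9a in 19 and Kcnh2 in 18 of 21, Kcnab2 in 14 of 14, Kcnh5 in 14 of 20 and Kcnj13 in 9 of 15. Kcnab2 no longer passed the low-value filter in 7 fits. These were the fit at a minimum value of 50 and those without control 5 or any of knockouts 1 to 4, where it reached 10. Its 14 fits therefore all held these libraries, and 14 of 14 is no measure of stability. Likewise the 15 fits of Kcnj13 all held knockouts 2 to 5 and control 3. Medians moved beyond the spread between libraries for the calcium channel auxiliary genes with equal library totals (0.45). They also did for the sodium channel β genes without controls 2 and 5 (1.78). In both fits the filter passed other genes than in the main fit. Cacna2d4 joined the auxiliary genes, and Scn2b no longer passed among the sodium channel β genes, so 1.78 is the value of Scn3b alone. Neither median is therefore a shift of the same genes. Directions turned for Kcnb2 (-0.031), Kcnma1 (-0.14), Kcnmb2 (-0.014), Kcnn2 (0.29), Kcnip1 (0.19) and Cacna2d1 (-0.036) without controls 2 and 5, for Kcnmb2 (-0.12), Kcnk3 (0.066), Cacna2d1 (-0.11) and Scn8a (-0.031) with library quality weights, for Kcnn2 (0.0069) with a pseudocount of 32 and for Cacna2d1 (-0.011) with TMM factors. With single libraries left out Kcnf1 ran from -0.64 to 0.0013, Kcnma1 from -0.30 to 1.12, Kcnmb2 from -0.20 to 0.30, Kcnn2 from -0.41 to 0.41, Kcnj6 from -0.035 to 0.63, Kcnk3 from -0.45 to 0.31, Kcnip1 from -0.22 to 0.14, Cacna2d1 from -0.17 to 0.17, Cacnb2 from -0.074 to 0.26 and Scn8a from -0.20 to 0.67. By the estimate from low values knockout 1 was the shallowest library; the part of depth in its low and zero values was not tested.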

Other observations

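Among the untested channel genes, 5 had a value over 100 in at least 1 library. Kcnt1, a sodium-activated potassium channel gene, was 312.3 in knockout 4 and at most 7.7 in the other knockouts, against at most 0.4 in controls. Cacna2d4, an α2δ gene, was above 0 in all 10 libraries, at 309.1 in knockout 1 and 9.6 to 63.1 in the other knockouts, against 131.6 in control 1 and 7.1 to 8.1 in the other controls. Kcng3, a silent Kv subunit gene, was listed at 0 in all knockouts and at 129.3 in control 5 alone. These 3, Kcnj5 and Scn2a1 were chosen after their values were seen.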
